A study of Mus musculus with 8 samples.

Results

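The genes described here encode the proteins that bring long-chain fatty acids into heart muscle cells, carry them into mitochondria and oxidise them there. They are a list of 31 genes, chosen by name, and all 31 were present among the 13227 genes of the count files; 13226 genes were tested, the 31 among them. RNA was sequenced from homogenized hearts of adult male FVB/N mice, an inbred strain, at 3 months of age. FASTKD1 transgenic hearts carried a transgene for FASTKD1, a mitochondrial RNA-binding protein, which the series title calls cardiac-specific (hearts A, B, C and E, n = 4). The sources used here give neither its promoter nor its founder line. Non-transgenic hearts of the same strain were set against them (hearts A, B, D and E, n = 4). Values per heart are given below in these orders, as CPM, which are counts scaled to library size with TMM factors.

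Fatty acids are the main fuel of the adult heart. CD36 and the FATP proteins help them cross the cell membrane, FABP3 carries them through the cytosol, and long-chain acyl-CoA synthetases bind them to coenzyme A. The carnitine shuttle (CPT1 on the outer mitochondrial membrane, a translocase, and CPT2 on the inner membrane) then moves them into the matrix, where each turn of the beta-oxidation spiral removes an acetyl-CoA and hands electrons to the electron transfer flavoprotein and its dehydrogenase. Many of these genes are known targets of the nuclear receptors PPAR-alpha and ERR-alpha.

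Total counts ran from 44584359 to 55769859 in transgenic hearts and from 45802079 to 50830215 in non-transgenic hearts. Fastkd1 stood at 8845 to 11516 CPM in transgenic hearts, 26.3 to 33.8 CPM in hearts A, B and E labelled non-transgenic and 192 CPM in heart D labelled non-transgenic. For Y-linked genes as a sum, heart D had 0 counts and every other library 10372 to 15914, although all hearts are labelled male. Heart D thus goes against its label for sex, its Fastkd1 level stands apart from its group, and values without it are given below. Transgenic heart A held 2988 CPM of 4 atrial genes (Myl4, Myl7, Nppa and Sln), against 20.1 to 241 CPM in the other transgenic hearts and 16.2 to 572 CPM in non-transgenic hearts, the highest of these being heart D. All 8 cardiomyocyte markers were detected in every heart.

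Transcripts of nearly the whole pathway had lower mean levels in transgenic hearts, by small steps, and no single gene passed the test. Of the 31 genes, 0 rose and 0 fell (edgeR quasi-likelihood test, Benjamini-Hochberg adjusted p under 0.05), where 1.01% of all tested genes rose and 0.242% fell (1.25% in either direction). The log2 fold change of transgenic over non-transgenic hearts was below 0 for 30 of the 31, with a median of -0.34 and a range of -1.14 to 0.68; over all tested genes it was below 0 for 48.8%, with a median of 0.01. An unadjusted p under 0.05 was reached by 20 genes on the lower and 1 on the higher side, against 5.38% and 5.37% of all tested genes. DESeq2 called 3 of the 31 lower, Acsl1, Acaa2 and Ech1, where it called 1.20% of all genes lower, and limma-voom called 0. Because bulk RNA of hearts was sequenced, fewer cells of a type and less RNA per cell cannot be told apart.

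Non-transgenic heart D lay apart from its group in most of the 31 genes. All 4 transgenic values lay below non-transgenic A, B and E for 24 of the 31 genes, against 6.89% of all tested genes, but below all 4 non-transgenic hearts for only 2, Acsl1 and Ech1 (2.80% of all genes); 0 of the 31 separated on the higher side, against 4.58% of all genes. Heart D was the lowest non-transgenic heart for 27 of the 31 genes, where it was lowest for 26.2% of all genes. Its value lay within the range of the transgenic hearts for 20 genes, below it for 9 and above it for 2. These positions were not counted over all tested genes. Without heart D the same fit called 7 of the 31 lower (Acsl1, Cpt2, Slc25a20, Hadha, Acaa2, Decr1 and Ech1) and 0 higher, where 0.544% of all genes fell and 1.04% rose; the median was -0.48. Without both heart D and transgenic heart A it called 3 of the 31, Acaa2, Decr1 and Ech1, where 0.802% of all genes fell.

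**Figure D1:**
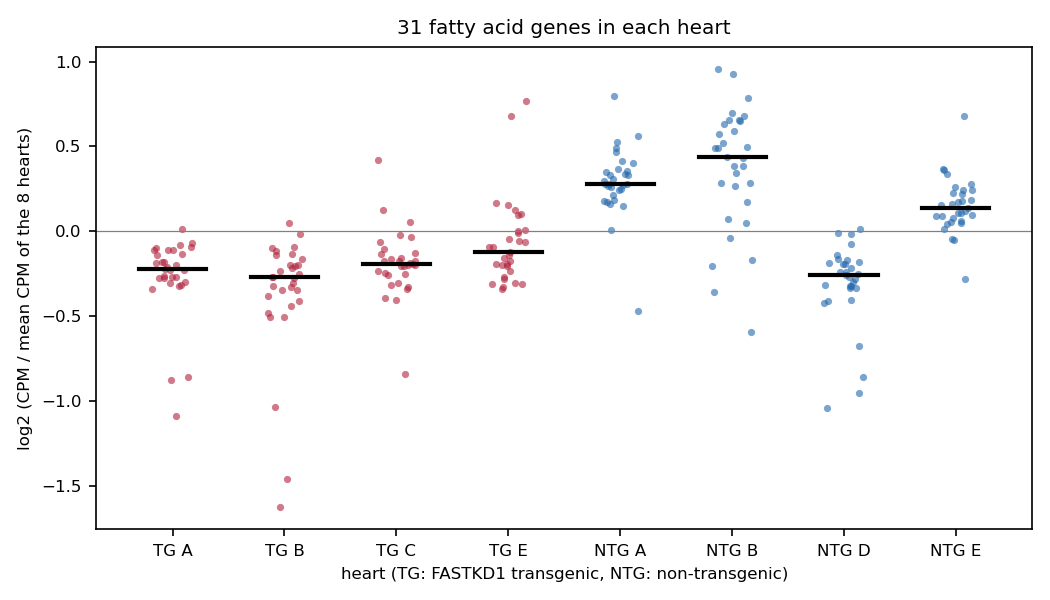
Each point is 1 of the 31 genes; the y axis is log2 of its CPM over its mean CPM in the 8 hearts, the x axis the heart, and the black bar the median of the 31 genes. The medians of transgenic hearts A, B, C and E were -0.22, -0.27, -0.19 and -0.12, against 0.28, 0.44, -0.25 and 0.14 in non-transgenic ones (A, B, D and E), so heart D lay among the transgenic hearts.

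Summed over the 31 genes, CPM was 15227, 14088, 15041 and 16128 in transgenic hearts and 22159, 25901, 14552 and 19097 in non-transgenic hearts. With heart D included, the SD of log2 CPM was smaller in transgenic than in non-transgenic hearts for 29 of the 31 genes. The medians were 0.10 in transgenic and 0.33 in non-transgenic hearts. Heart D was the lowest non-transgenic heart for 27 of the 31 genes, and the SD was not computed without it. Over all tested genes the median SD was 0.13 in transgenic and 0.23 in non-transgenic hearts. Non-transgenic heart B was the highest of all 8 hearts for 22 genes. Neither this count nor that of 29 genes was taken over all tested genes.

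Other measures also differed between hearts. Mitochondrially encoded genes took 27.0%, 24.0%, 21.9% and 23.0% of counts in transgenic hearts and 25.3%, 30.1%, 18.6% and 21.2% in non-transgenic hearts. The transgenic values lay within the non-transgenic range. Among non-transgenic hearts B was highest and D lowest both in this share and in the summed CPM of the 31 genes. Among transgenic hearts the orders differed: A was highest and C lowest in this share, E highest and B lowest in the sum. The 8 cardiomyocyte markers (Myh6, Tnnt2, Tnni3, Actc1, Myl2, Ttn, Ryr2 and Pln) summed to 54318 to 58464 CPM in transgenic hearts and 67446 to 77894 CPM in non-transgenic hearts. Non-transgenic hearts D and E were close, at 67446 and 68037 CPM. Heart D was the lowest non-transgenic heart for Tnni3, Myl2 and Pln and the highest for Ttn. The sums did not overlap, and 0 of the 8 passed the test. All 8 log2 fold changes were below 0 (median -0.36), from -0.57 in Pln to -0.005 in Ryr2, with Ttn at -0.09. Taken singly, 5 of the 8 did not overlap between groups, against 2.80% of all tested genes. Endothelial markers summed to 791 to 839 CPM in transgenic hearts and 832 to 917 CPM in non-transgenic hearts, with 0 of 7 called. Adipocyte markers, with 6 of 8 measured, summed to 21.4 to 32.8 CPM in transgenic hearts and 22.3 to 59.1 CPM in non-transgenic hearts. Of the 6, 0 were called. Ucp1 and Retn were not analysed here. Cidea was the highest of the 6 in every heart, at 16.4 to 20.2 CPM in transgenic and 14.3 to 30.5 CPM in non-transgenic hearts. Adipoq, Plin1, Cidec, Lep and Cfd were each highest in heart A of both groups and, among non-transgenic hearts, lowest in heart E. Adipoq ran from 0.66 to 4.25 CPM in transgenic and from 0.19 to 9.72 CPM in non-transgenic hearts. Red blood cell markers, with 4 of 5 measured, summed to 299 to 416 CPM in transgenic hearts and 356 to 803 CPM in non-transgenic hearts, heart D being highest. Without heart D, cardiomyocyte markers summed to 68037 to 77894 CPM in non-transgenic hearts, the median log2 fold change of the 8 was -0.38 and 0 passed. Of the fibroblast, macrophage, red blood cell, atrial and skeletal muscle markers 0 passed the test, with or without heart D. Of the skeletal muscle markers 2 of 5 were measured, Acta1 and Ckm. With all 8 hearts, 4 of 4 red blood cell markers had an unadjusted edgeR p under 0.05 (median log2 fold change -0.67), against 0 fibroblast, 0 macrophage and 0 atrial markers. Without heart D, 3 of 4 atrial markers did (median 5.26), against 1 fibroblast and 0 macrophage markers. The part of these shifts in the result was not tested. With mitochondrially encoded genes and Fastkd1 taken out of the counts, the median of the 31 was -0.34 and 0 were called.

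Per kilobase of transcript, the scale on which levels of different genes can be set side by side, Fabp3 was the most abundant of the 31 at 1379 ± 101 CPM per kb in transgenic and 1731 ± 381 CPM per kb in non-transgenic hearts (SD, n = 4 each). Cd36 followed in transgenic hearts at 644 ± 38.0 CPM per kb, then Acadl, Acadm and Ech1 at 631 ± 25.4, 605 ± 44.4 and 597 ± 31.5 CPM per kb; these neighbours in the order did not differ by more than their spread. Ech1 stood below Cd36 in transgenic hearts and level with it in non-transgenic hearts, at 972 ± 273 CPM per kb in the non-transgenic hearts. At the low end stood Ucp3, Cpt1a, Cpt1b and Acot1, between 1.41 and 9.81 CPM per kb in transgenic and between 3.099 and 17.4 CPM per kb in non-transgenic hearts. Each of the 31 genes had at least 83 counts in every library, and all 31 passed the filter on low counts.

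**Figure D2:**
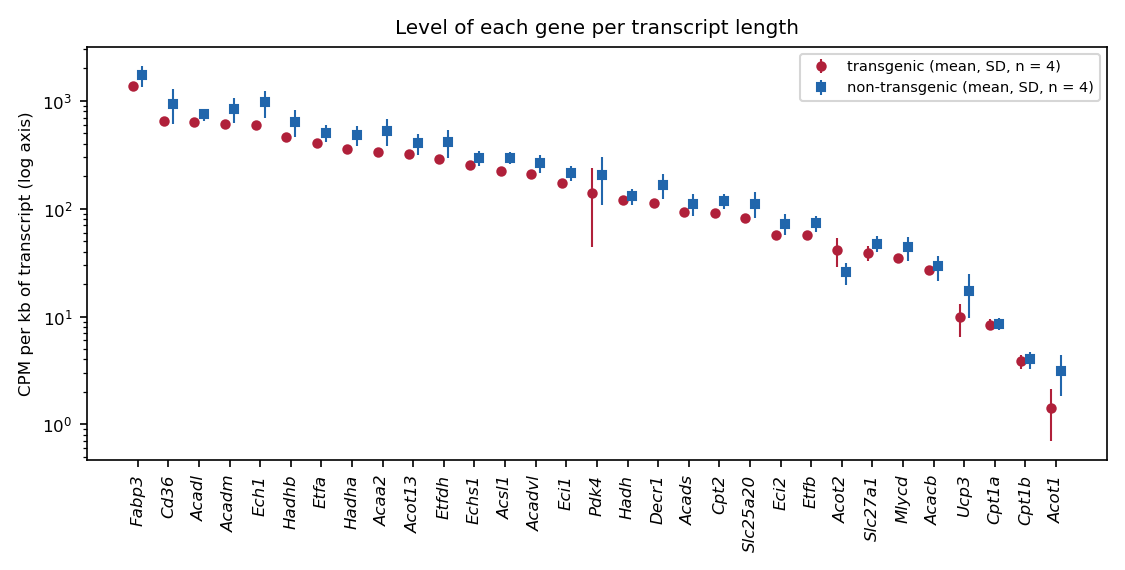
Mean CPM per kb of the principal transcript (log axis) for the 31 genes, ordered by the transgenic mean; circles are transgenic and squares non-transgenic hearts, bars the SD (n = 4 each). Transgenic means lie below non-transgenic means for every gene except Acot2, and the listed Cpt1b lies below Cpt1a in both groups.

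The level listed for Cpt1b, the muscle isoform of carnitine palmitoyltransferase 1, was 3.85 ± 0.568 CPM per kb in transgenic and 3.9999 ± 0.705 CPM per kb in non-transgenic hearts, under that of Cpt1a, the liver isoform, and far under Cpt2 at 90.6 ± 5.50 and 118 ± 18.3 CPM per kb. In GENCODE M21 a further gene, Gm44502, covers the same exons on the same strand, and 93.0% of all 50-base words of the Cpt1b transcript occur in Gm44502 transcripts. Etfb shares 67.3% of its words with Gm45233 in the same way, and was counted at 56.6 ± 3.14 CPM per kb in transgenic and 73.3 ± 12.7 CPM per kb in non-transgenic hearts, where its partner subunit Etfa had 406 ± 19.9 and 506 ± 94.1 CPM per kb. Neither Gm44502 nor Gm45233 is among the 13227 genes. The sources used here do not state how reads lying in 2 genes were counted. The levels and fold changes of Cpt1b and Etfb, and the order of Cpt1a and Cpt1b, are therefore uncertain. Hadhb shares 61.5% of its words with the processed pseudogene Gm13910, Fabp3 29.2% with Fabp3-ps1, and Acadvl 24.0% with its antiparallel neighbour Dvl2. The share was 0 for 17 of the 31 genes.

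Among the genes of uptake and activation, 4 of 4 had log2 fold changes below 0 (median -0.37) and 0 passed. Acsl1, the acyl-CoA synthetase of heart and adipose tissue (ENSMUSG00000018796; GRCm38 chromosome 8, 46471037 to 46536051, plus strand), had 839, 808, 940.1 and 894 CPM in transgenic hearts, against 1151, 1319, 962 and 1176 CPM in non-transgenic hearts. The groups did not overlap, and transgenic heart C came closest to non-transgenic heart D (log2 fold change -0.40, SE 0.11, edgeR adjusted p = 0.169). Without heart D the value was -0.49 (edgeR adjusted p = 0.0442). Cd36, the main fatty acid translocase of the heart, had 2372, 2075, 2129.6 and 2182 CPM in transgenic hearts, against 3562, 4644, 2013 and 2615 CPM in non-transgenic hearts. Heart D lay below every transgenic heart while hearts A, B and E lay above them all (log2 fold change -0.55, SE 0.22, edgeR adjusted p = 0.397). The value was -0.73 without heart D (edgeR adjusted p = 0.0866) and -0.32 without non-transgenic heart B. Fabp3 was at -0.46 without heart D and -0.20 without heart B, and Slc27a1 at -0.35 without heart D. Fabp3 and Slc27a1, the second of which encodes the transporter FATP1, gave log2 fold changes of -0.33 and -0.29, with edgeR adjusted p-values of 0.488 and 0.543, with Slc27a1 at 88.7 to 131 CPM in transgenic and 107 to 152 CPM in non-transgenic hearts.

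In the carnitine shuttle, 4 of 4 values were below 0 (median -0.22), and the genes split into a pair with lower levels and a pair near 0. Cpt2, which rebuilds acyl-CoA inside the matrix, had 205, 204, 219 and 231 CPM in transgenic hearts, against 305, 313, 217 and 279.6 CPM in non-transgenic hearts (log2 fold change -0.38, SE 0.12, edgeR adjusted p = 0.283). Slc25a20, the carnitine-acylcarnitine translocase, had 143, 139.9, 155 and 151 CPM in transgenic hearts, against 219, 257, 130.5 and 188 CPM in non-transgenic hearts (log2 fold change -0.43, SE 0.18, edgeR adjusted p = 0.415). In both genes hearts A, B and E of the non-transgenic group lay above all transgenic hearts and heart D among or below them. Without heart D the values were -0.49 (edgeR adjusted p = 0.0377) for Cpt2 and -0.60 (edgeR adjusted p = 0.0438) for Slc25a20; Slc25a20 was at -0.28 without non-transgenic heart B. Cpt1a, at 31.97 to 41.3 CPM in transgenic and 30.8 to 41.4 CPM in non-transgenic hearts, had a log2 fold change of -0.02 (SE 0.12, edgeR adjusted p = 0.968). For Cpt1b the range was 9.22 to 12.6 CPM in transgenic and 8.88 to 13.6 CPM in non-transgenic hearts (log2 fold change -0.06, SE 0.15). Without heart D they were at -0.11 and -0.08. The direction of Cpt1a and Cpt1b turned to above 0 with library totals as the only scaling, at 0.06 and 0.01.

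The acyl-CoA dehydrogenases, which take the first step of each turn and differ in the chain length they prefer, were also below 0 in 4 of 4 (median -0.30), with 0 past the test. Acadm, the medium-chain enzyme, had 1369.7, 1177, 1178 and 1227 CPM in transgenic hearts, against 1907, 2232, 1183 and 1561 CPM in non-transgenic hearts (log2 fold change -0.47, SE 0.17, edgeR adjusted p = 0.347). Acadvl, the very long-chain enzyme, had 465, 423, 443 and 469 CPM in transgenic hearts, against 617, 687, 432 and 543 CPM in non-transgenic hearts (log2 fold change -0.34, SE 0.14, edgeR adjusted p = 0.398). Heart D stood within the transgenic range in both genes, below heart A and above heart B of the transgenic group. Acadl, the long-chain enzyme, and Acads, the short-chain enzyme, gave log2 fold changes of -0.25 and -0.25, with edgeR adjusted p-values of 0.452 and 0.617. Without heart D, Acadm was at -0.63, Acadvl at -0.46, Acadl at -0.34 and Acads at -0.34, with edgeR adjusted p of 0.0517, 0.0751, 0.108 and 0.331. Acads was at -0.11 without non-transgenic heart A. It differed from the other dehydrogenases in its order: non-transgenic heart B, the highest heart for the other 3, was the lowest of all 8 at 164 CPM.

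The later steps of the spiral held 5 genes, 5 of 5 below 0 (median -0.44). Acaa2, the mitochondrial 3-ketoacyl-CoA thiolase that splits off acetyl-CoA, had 545, 468, 499 and 521 CPM in transgenic hearts, against 904, 1032, 525 and 737 CPM in non-transgenic hearts. Only heart D kept the groups from separating (log2 fold change -0.65, SE 0.18, edgeR adjusted p = 0.173), and without it the value was -0.82 (edgeR adjusted p = 0.0124). Hadha and Hadhb encode the alpha and beta subunits of the mitochondrial trifunctional protein, which carries out the remaining steps on long chains. Hadha had 1440.2, 1327, 1431 and 1528 CPM in transgenic hearts, against 2116, 2368, 1449 and 1814 CPM in non-transgenic hearts (log2 fold change -0.44, SE 0.14, edgeR adjusted p = 0.294). Without heart D it was -0.56 (edgeR adjusted p = 0.0440). Hadhb was close to it, with a log2 fold change of -0.48 (SE 0.17, edgeR adjusted p = 0.333), -0.63 without heart D (adjusted p = 0.0743) and -0.30 without non-transgenic heart B. The enzymes of short chains, Hadh, a 3-hydroxyacyl-CoA dehydrogenase, and Echs1, an enoyl-CoA hydratase, had the smallest values of the group at -0.12 and -0.21 (edgeR adjusted p = 0.818 and 0.596). Hadh was at -0.24 without heart D and -0.06 without non-transgenic heart E, and Echs1 at -0.30 without heart D (edgeR adjusted p = 0.208).

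Hadha and Hadhb lie head to head, and their promoter windows, taken from RefSeq on GRCm38.p6 as 250 bases before to 50 after each annotated start, overlap by 228 bases. The window of Hadhb (chr5:30155003-30155302, plus strand) is shown with the bases that it shares with the window of Hadha in capitals.
Hadhb: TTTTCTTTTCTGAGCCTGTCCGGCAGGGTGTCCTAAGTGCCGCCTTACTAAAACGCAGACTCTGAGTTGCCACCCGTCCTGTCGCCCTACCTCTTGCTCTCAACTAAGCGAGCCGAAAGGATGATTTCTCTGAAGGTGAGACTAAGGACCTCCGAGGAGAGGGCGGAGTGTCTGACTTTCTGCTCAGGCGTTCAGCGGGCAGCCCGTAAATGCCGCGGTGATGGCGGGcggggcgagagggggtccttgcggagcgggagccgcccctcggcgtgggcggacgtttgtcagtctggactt
Within a heart, the ratio of Hadhb to Hadha in CPM per kb was 1.34, 1.31, 1.24 and 1.27 in transgenic hearts and 1.28, 1.47, 1.27 and 1.26 in non-transgenic hearts. The mean difference of transgenic minus non-transgenic hearts was -0.030 (exact permutation p = 0.800 over the 70 arrangements of the hearts, two-sided, BH-adjusted p = 0.886 over 5 such ratios), with the limit that Hadhb shares sequence with its pseudogene.

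Auxiliary enzymes that open the way for unsaturated chains gave the lowest adjusted p of the 31 genes; 4 of 4 were below 0 (median -0.45) and 0 passed. Ech1, a dienoyl-CoA isomerase (ENSMUSG00000053898; GRCm38 chromosome 7, 28825217 to 28832247, plus strand), had 784, 701, 752 and 787 CPM in transgenic hearts, against 1468, 1540.2, 788 and 1131 CPM in non-transgenic hearts. Every transgenic heart lay below every non-transgenic heart, with transgenic heart E and non-transgenic heart D almost level (log2 fold change -0.70, SE 0.19, edgeR adjusted p = 0.145). The value was -0.88 (edgeR adjusted p = 0.00687) without heart D and -0.89 (edgeR adjusted p = 0.0128) without both heart D and transgenic heart A. Decr1, a dienoyl-CoA reductase, had 341, 291, 345 and 361 CPM in transgenic hearts, against 498, 649, 331 and 489 CPM in non-transgenic hearts (log2 fold change -0.56, SE 0.18, edgeR adjusted p = 0.271); without heart D it was -0.71 (edgeR adjusted p = 0.0304). The enoyl-CoA isomerase genes Eci1 and Eci2 had log2 fold changes of -0.31 and -0.34, with edgeR adjusted p of 0.44 and 0.444. They were at -0.41 and -0.46 without heart D (edgeR adjusted p = 0.127 and 0.125), and Eci2 at -0.20 without non-transgenic heart B. The promoter window of Ech1 (chr7:28825088-28825387, plus strand) is shown as that of the gene with the smallest p, with GGGCGG or its reverse complement in capitals. GGGCGG occurred in 35.7% of all 32851 RefSeq windows and in 19 of the 30 windows found for the 31 genes (63.3%).
Ech1: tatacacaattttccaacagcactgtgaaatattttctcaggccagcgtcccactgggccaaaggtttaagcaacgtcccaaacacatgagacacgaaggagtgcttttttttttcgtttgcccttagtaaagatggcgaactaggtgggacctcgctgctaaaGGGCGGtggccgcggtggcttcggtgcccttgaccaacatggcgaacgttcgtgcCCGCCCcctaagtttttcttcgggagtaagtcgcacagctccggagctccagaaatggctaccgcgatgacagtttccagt

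Electron transfer genes were below 0 in 3 of 3 (median -0.37). Etfdh, which passes electrons from the flavoprotein to ubiquinone, had 716, 627, 703 and 711 CPM in transgenic hearts, against 999.9, 1352, 679 and 891 CPM in non-transgenic hearts (log2 fold change -0.51, SE 0.18, edgeR adjusted p = 0.326). Etfb had 51.2, 53.6, 50.6 and 46.8 CPM in transgenic hearts, against 73.9, 75.7, 51.8 and 60.4 CPM in non-transgenic hearts (log2 fold change -0.37, SE 0.12, edgeR adjusted p = 0.296). For both genes heart D was inside the transgenic range and the other non-transgenic hearts above it. Etfa, the larger subunit's gene, had a log2 fold change of -0.32 (edgeR adjusted p = 0.43). Without heart D, Etfdh was at -0.66, Etfb at -0.48 and Etfa at -0.43, with edgeR adjusted p of 0.0647, 0.0650 and 0.0881. Without non-transgenic heart B, Etfdh was at -0.31 and Etfa at -0.21. The ratio of Etfb to Etfa in CPM per kb was 0.140 ± 0.00996 in transgenic and 0.146 ± 0.0131 in non-transgenic hearts (SD over 4 hearts each; exact permutation p = 0.486, BH-adjusted p = 0.810), within the limit given for Etfb.

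**Figure D3:**
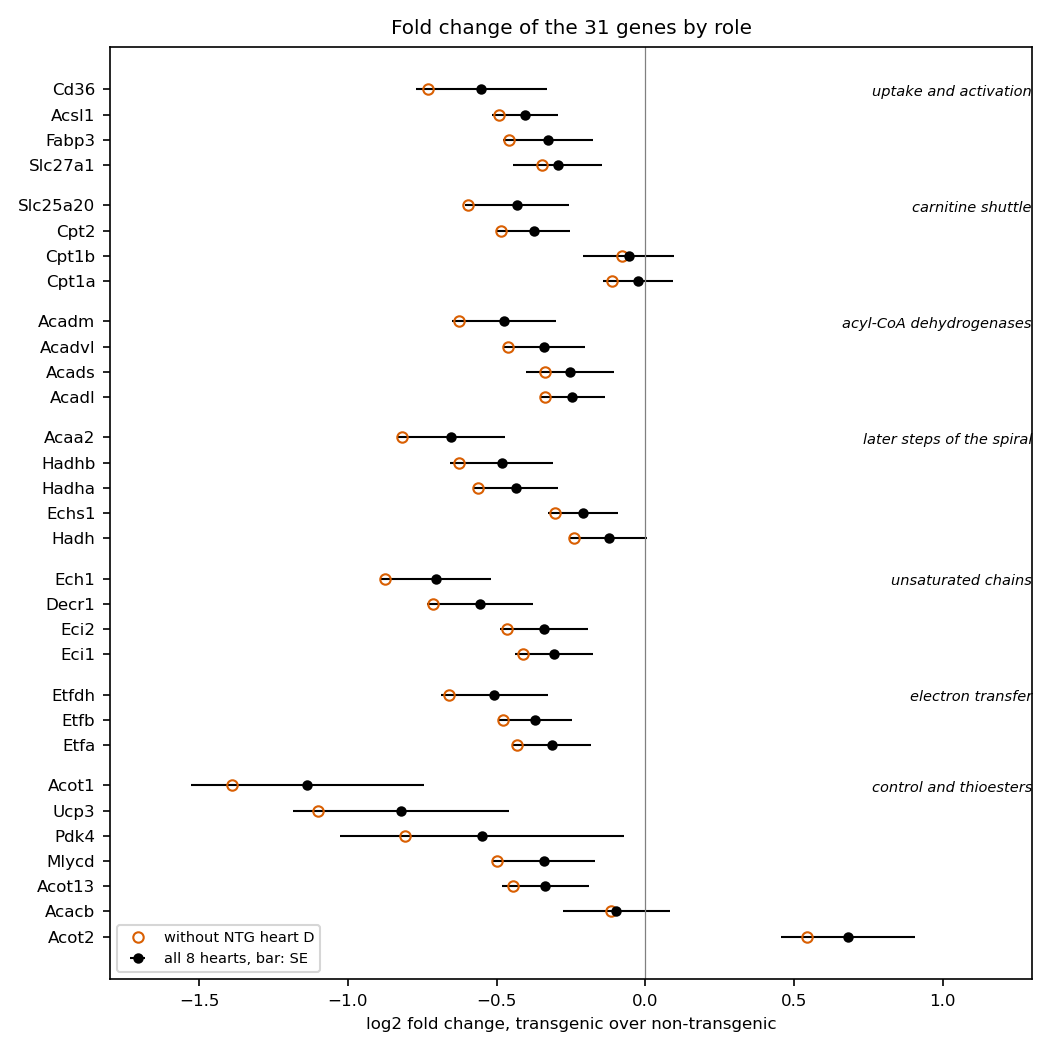
The x axis is the log2 fold change of transgenic over non-transgenic hearts, the y axis the 31 genes by role; filled points with bars are the value and its SE from all 8 hearts, open circles the value without non-transgenic heart D. All values but that of Acot2 lie below 0, and Cpt1a, Cpt1b, Acacb and Hadh lie nearest to it.

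Genes of control and of acyl-CoA hydrolysis held both the largest and the only positive values. Ucp3, a mitochondrial carrier induced by fatty acids (ENSMUSG00000032942; GRCm38 chromosome 7, 100472990 to 100486432, plus strand), had 18.3, 16.2, 28.1 and 33.4 CPM in transgenic hearts, against 57.9, 53.4, 16.2 and 42.7 CPM in non-transgenic hearts. Heart D was the lowest of all 8, the other non-transgenic hearts were above every transgenic heart, and the transgenic hearts ranged from 16.2 to 33.4 CPM (log2 fold change -0.82, SE 0.36, edgeR adjusted p = 0.452; -1.10 without heart D, adjusted p = 0.0651). Pdk4, the kinase that shuts pyruvate out of oxidation when fatty acids are burnt, had 285, 219.6, 489.6 and 966 CPM in transgenic hearts, against 733, 1147, 312 and 676 CPM in non-transgenic hearts. Its groups overlapped widely, with transgenic heart E above 3 of 4 non-transgenic hearts (log2 fold change -0.55, SE 0.48, edgeR adjusted p = 0.77); without transgenic heart E the value was -1.13 (edgeR adjusted p = 0.453), without transgenic A or B -0.36 or -0.32, without non-transgenic B -0.23 and without heart D -0.81. Of all Pdk1 to Pdk4 transcripts per kb, Pdk4 made up 27.8%, 21.04%, 37.7% and 53.4% in transgenic hearts and 43.3%, 59.0%, 27.7% and 42.2% in non-transgenic hearts (exact permutation p = 0.429, BH-adjusted p = 0.810). Mlycd, which degrades the CPT1 inhibitor malonyl-CoA, and Acacb, which makes it, gave log2 fold changes of -0.34 and -0.10, with edgeR adjusted p-values of 0.538 and 0.904. Without heart D they were at -0.50 and -0.11 (edgeR adjusted p = 0.0945 and 0.818), and Mlycd was at -0.20 without non-transgenic heart A. Among the hearts, Acacb was lowest in non-transgenic heart B at 165 CPM and turned to 0.02 without non-transgenic heart A.

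The window before Ucp3 (chr7:100472741-100473040, plus strand) is shown because AGGTCA, the half-site that nuclear receptors of the PPAR and ERR kind recognise, occurs in it more than once, in capitals.
Ucp3: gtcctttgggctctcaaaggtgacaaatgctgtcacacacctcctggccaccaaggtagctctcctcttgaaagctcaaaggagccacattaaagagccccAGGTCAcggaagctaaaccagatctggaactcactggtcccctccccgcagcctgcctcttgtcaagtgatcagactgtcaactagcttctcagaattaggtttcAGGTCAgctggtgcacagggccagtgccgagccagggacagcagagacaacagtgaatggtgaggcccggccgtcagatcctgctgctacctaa
RefSeq windows of 27 of the 31 genes (all but Cpt1b, Decr1, Acaa2 and Acot13), 30 windows in all, were searched on both strands. AGGTCA occurred in 7 of the 30 (23.3%), those of Acacb, Acadm, Acadvl, Cd36, Cpt1a, Echs1 and Ucp3, and in 16.3% of all 32851 windows. The site of PPAR dimers, AGGTCA repeated after a single free base, occurred in 0 of the 30 and 0.0396% of all windows, and TCAAGGTCA, which contains the half-site, in 0 of the 30 and 0.423% of all. These letters are a description of a short window only.

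The thioesterase genes Acot1 and Acot2, neighbours on chromosome 12 (Acot2 at 83987861 to 83993873 and Acot1 at 84009490 to 84018371, both on the plus strand), stood on opposite sides. Their products split long-chain acyl-CoA into free fatty acid and coenzyme A, Acot1 in the cytosol and Acot2 in mitochondria. Acot2 had 62.8, 76.3, 98.3 and 125 CPM in transgenic hearts, against 53.1, 71.8, 40.6 and 60.7 CPM in non-transgenic hearts. Acot2 was the only gene of the 31 with a mean above that of the non-transgenic hearts (log2 fold change 0.68, SE 0.23, edgeR adjusted p = 0.294). Non-transgenic heart B overlapped the transgenic hearts, and heart D was the lowest of all 8 hearts. Without heart D the value was 0.54 (edgeR adjusted p = 0.311). Acot1 had 2.79, 1.66, 2.86 and 5.47 CPM in transgenic hearts, against 6.82, 9.93, 3.21 and 8.20 CPM in non-transgenic hearts. For Acot1 only heart D overlapped, lying below transgenic heart E (log2 fold change -1.14, SE 0.39, edgeR adjusted p = 0.315). Without heart D the value was -1.39 (edgeR adjusted p = 0.0911). Acot13, a mitochondrial thioesterase of another family, had a log2 fold change of -0.34 (edgeR adjusted p = 0.444), -0.45 without heart D and -0.20 without non-transgenic heart B.

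Within each heart, Acot1 made up 4.12%, 2.06%, 2.73% and 4.04% of Acot1 and Acot2 transcripts per kb in transgenic hearts and 11.0%, 11.8%, 7.09% and 11.6% in non-transgenic hearts. The groups did not overlap, heart D included, and the means were 3.24% ± 1.01 in transgenic and 10.4% ± 2.21 in non-transgenic hearts (SD over 4 hearts each). The exact permutation test gave its smallest possible p of 0.0286, lower in 4 of 4 transgenic hearts, and a BH-adjusted p of 0.143 over the 5 ratios, which does not pass. Without heart D the non-transgenic mean was 11.5% ± 0.383 (SD, n = 3; exact permutation p = 0.0571, the smallest that 35 arrangements allow; BH-adjusted p = 0.286), and the other 4 ratios gave exact permutation p of 0.229 to 0.857. The 2 transcripts share sequence, 23.7% of the 50-base words of Acot1 occurring in Acot2 and 24.6% of those of Acot2 in Acot1, so that reads from these stretches may have been split between them. In a global alignment the 2 transcripts had 68.2% identical positions. Their promoter windows (Acot1 at chr12:84009252-84009551 and Acot2 at chr12:83987611-83987910, both on the plus strand) had 46.8% in the same kind of alignment. The share that unrelated windows reach was not computed. CCAAT or its reverse complement is in capitals, and 37.4% of all windows hold it.
Acot1: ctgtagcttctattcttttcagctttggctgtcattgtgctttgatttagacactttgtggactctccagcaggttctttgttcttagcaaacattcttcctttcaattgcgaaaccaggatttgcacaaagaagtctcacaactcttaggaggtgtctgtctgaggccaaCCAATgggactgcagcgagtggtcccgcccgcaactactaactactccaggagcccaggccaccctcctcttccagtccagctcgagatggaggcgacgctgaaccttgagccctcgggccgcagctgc
Acot2: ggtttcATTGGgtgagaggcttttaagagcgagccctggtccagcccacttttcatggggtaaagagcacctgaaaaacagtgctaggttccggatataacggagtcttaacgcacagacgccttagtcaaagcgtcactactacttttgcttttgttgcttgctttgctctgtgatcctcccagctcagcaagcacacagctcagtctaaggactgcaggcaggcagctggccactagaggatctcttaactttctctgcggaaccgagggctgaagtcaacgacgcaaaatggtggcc

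**Figure D4:**
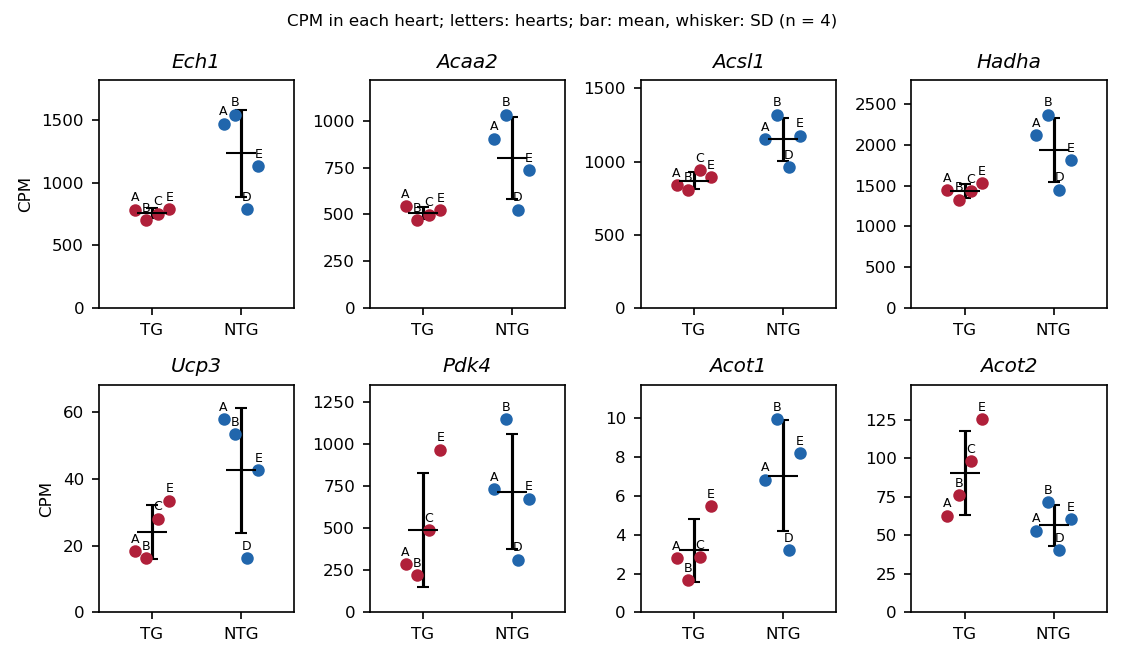
CPM (y axes, each from 0) in transgenic (TG, left) and non-transgenic (NTG, right) hearts for 8 genes; points are hearts with their letters, the horizontal bar the mean and the whisker the SD (n = 4). Heart D of the non-transgenic group lies at the level of the transgenic hearts for Ech1, Acaa2, Hadha and Ucp3, and Acot2 is the panel with the higher transgenic mean.

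Other fatty acid genes were set beside the 31 as 4 lists of 100 genes, of which 96 were tested: 0 rose, 1 fell and 95 did not pass, with 71 log2 fold changes below 0 and a median of -0.13. Without heart D, 3 fell (Lpl, Acot7 and Echdc3) and 0 rose, with 75 below 0 and a median of -0.16. In the list of supply and storage, 1 of 25 fell, Lpl, the lipase that frees fatty acids from circulating triglyceride. It had 3404, 3363, 3749.9 and 3614 CPM in transgenic hearts, against 4863, 5999, 4836 and 4737 CPM in non-transgenic hearts (log2 fold change -0.53, SE 0.10, edgeR adjusted p = 0.0393). Heart D, at 4836 CPM, stood with its own group. Leaving out single libraries ended this call in 6 of 8 cases, those of each transgenic heart and of non-transgenic A and E (edgeR adjusted p = 0.0593 to 0.180). So did a block on the title letters (adjusted p = 0.196) and leaving out both heart D and transgenic heart A (adjusted p = 0.0756). Gpihbp1, which anchors the lipase on capillaries, and Fabp4, a fatty acid binding protein of capillary endothelium and fat cells named after its values were seen, had log2 fold changes of -0.45 and -0.53 with no overlap between groups (edgeR adjusted p = 0.233 and 0.239).

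Of 27 further mitochondrial and related genes 0 passed (22 below 0, median -0.16); Acot7, a thioesterase, and Echdc3 came closest, with log2 fold changes of -0.43 and -0.53 and no overlap between groups (edgeR adjusted p = 0.0534 and 0.0639). Without heart D they were at -0.48 and -0.61 (edgeR adjusted p = 0.0377 and 0.0365). Peroxisomal genes gave 0 of 18 past the test (17 below 0, median -0.16), with the smallest p in Scp2 at -0.37 and Phyh, the enzyme that starts phytanic acid breakdown, at -0.25 (edgeR adjusted p = 0.43 and 0.442). Ehhadh had the lowest log2 fold change, -0.51 (adjusted p = 0.478), and was named after its values were seen. Regulators gave 0 of 26 (10 below 0, median 0.02). Among these, Sirt5, a deacylase, and Prkab2, a subunit of AMP-activated kinase, had the smallest p, with log2 fold changes of -0.21 and 0.20, with edgeR adjusted p-values of 0.486 and 0.518. The receptor genes Ppara and Esrra, named here after their values were seen, had 0.03 and 0.06, and the coactivator gene Ppargc1a -0.14.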

How the data were processed

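Each heart has its own deposited file of raw counts for Ensembl genes, which the authors had not normalized. The submitters' processing notes name cutadapt 1.15, TopHat2 and the build GRCm38 (mm10); read counter, annotation and strand setting: not given in the sources used here. Symbols, coordinates and principal transcript lengths came from GENCODE M21 on GRCm38. Counts were filtered with filterByExpr, scaled by TMM and tested with edgeR 4.0.16 in R 4.3.3 (quasi-likelihood F test, two-sided, Benjamini-Hochberg over 13226 genes, threshold 0.05); SE is the absolute log2 fold change over the square root of F. Single ratios were compared with an exact permutation test. DESeq2 1.42.0, limma 3.58.1 (voom), other scalings and filters, and leaving out each library were alternatives. Values per heart are shown for the 2 genes of smallest p in each role and those with a log2 fold change of at least 0.5 in size. Genes and lists were chosen with earlier results of these data known. Nothing in the labels says that each library is a separate animal beyond the heart letters, so p-values measure the spread between these samples.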

Additional observations from a re-analysis of the deposited data

Results flagged for a closer look

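In 72 groups of 4 hearts (the 31 genes and 5 ratios in both groups), 4 held a heart set far apart from the other 3 by Dixon's criterion; chance flags about 1 in 20. Transgenic heart B stood apart for Etfdh at 627 CPM, the other transgenic hearts lying at 703 to 716 CPM. The share of Cpt1a in Cpt1a plus Cpt1b was 75.7% in non-transgenic heart B and 64.7% to 66.3% in the other non-transgenic hearts, within the limit on Cpt1b. Heart B of the same group also had the Hadhb to Hadha ratio apart, at 1.47 against 1.26 to 1.28. Non-transgenic heart D had an Acot1 share of 7.09%, against 11.0% to 11.8% in hearts A, B and E, and so lay between them and the transgenic hearts at 2.06% to 4.12%.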

How the results depend on the processing

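Of 557 values of the 31 genes under 18 alternatives, 535 kept direction and side of the threshold, 13 passed it newly and 9 turned direction. The 9 belong to Cpt1a, Cpt1b and Acacb, at most 0.06 in size: with library totals only, Cpt1a was 0.0621 and Cpt1b 0.0099; without both non-transgenic D and transgenic A, Cpt1b was 0.0095; leaving out single libraries gave -0.11 to 0.0328 for Cpt1a, -0.16 to 0.0240 for Cpt1b and -0.26 to 0.0210 for Acacb. The number of the 31 genes called lower was 0 in 15 alternatives, 3 with DESeq2, 3 without both hearts and 0 to 7 without single libraries, 7 being without non-transgenic heart D; the share of all genes called lower was 1.20% with DESeq2, 0.802% without both hearts and 0.0680% to 0.544% without single libraries. Genes with groups that did not overlap numbered 8 with library totals only, 24 without both hearts and 2 to 24 without single libraries, 5 being without transgenic heart E and 24 without heart D; of all genes, 2.57% did so with library totals only, 12.02% without both hearts, 6.89% without heart D and 3.39% to 6.102% without another library. Leaving out 1 library moved 15 of the 31 fold changes over 1.5 times or past 0, 12 of them without non-transgenic heart B. Values without heart D for ratios, markers and other lists were added after seeing the data. Over all genes, DESeq2 called 249 higher and 159 lower, the fit without both hearts 106 lower, and single libraries moved these to 103 to 168 higher and 9 to 72 lower. Other fatty acid genes called numbered 4 with DESeq2, 3 with at least 10 CPM in at least 4 libraries, 2 with upper quartile scaling, 2 without both hearts and 0 to 3 without single libraries. The overlap count has no value for other tools, filters and the block, and Acot1 fell under the filter of 10 CPM. With a replicate block on the title letters, 21 genes were lower, and 0 other fatty acid genes and 0 of the 31 were called. The median of the 31 was -0.46. Transgenic C and non-transgenic D share a letter with no other heart, so the group difference in that fit rests on hearts A, B and E. The block changed no call of the 31, but a fit resting on fewer hearts has less power to make calls. No label says that a shared letter pairs animals, so the letters were not taken as pairs. Deviations of same-letter hearts correlated at 0.30 (A), -0.085 (B) and 0.36 (E). For transgenic A and E these were the highest values with any non-transgenic heart. Hearts of different letters ran from -0.44 (transgenic A with non-transgenic E) to 0.45 (transgenic C with non-transgenic E). These values do not settle whether the letters mark pairs. The cause of these shifts was not tested.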
